A study of Apis mellifera with 6 samples.

Results

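*mael* and *spn-E* are a pair of germline genes of the piRNA pathway, and they were 2 of the 11169 gene entries measured by RNA-seq in honeybee (*Apis mellifera*) ovaries. Both were chosen by symbol, with their RPKM (mapped reads normalized for gene length and library size) in all ovary groups already known. Their levels and differences are therefore given as a description without a test. The ovaries came from 3 groups of females kept in hives around Dunedin, with 2 libraries per group. Queens were egg layers of about 12 months that headed colonies. Queen-less workers had active ovaries with a score of 3 and were dissected 2 to 4 weeks after a hive without a queen was set up. Queen-right workers had inactive ovaries with a score of 0 and lived in hives with a laying queen. The labels name no mutant, transgene or drug in any group. Each library was made from a pool of dissected ovaries, so the spread between libraries is the spread between 2 pools and holds nothing on single bees.

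The piRNA pathway protects the germline genome. Small RNAs called piRNAs guide PIWI proteins, a branch of the Argonaute family, to transcripts of transposons, which are then cut or silenced. In *Drosophila* ovaries much of this takes place in the nuage, a granule around the nuclei of germline cells in which a pair of PIWI proteins cut transposon and piRNA precursor transcripts in turn, the ping-pong cycle. *mael* encodes Maelstrom, a nuage and nuclear protein with an HMG box that in *Drosophila* is needed for piRNA-guided silencing. *spn-E* encodes Spindle-E, a DExH-box helicase with a Tudor domain that in *Drosophila* sits in the nuage and is needed for the ping-pong cycle. In flies, loss of either gene also disturbs the axes of the oocyte.

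The deposited table placed *mael* (gene identifier 409557) on scaffold NW_003378100 from 79218 to 86349, a span of 7132 bp, and *spn-E* (gene identifier 727113) on scaffold NW_003378059 from 1038696 to 1045194, a span of 6499 bp. The build behind these coordinates is not given in the sources used here. In RefSeq's annotation of another assembly, Amel_HAv3.1, *mael* had 2 transcripts and *spn-E* had 4, each under a LOC name. *spn-E* overlapped the entry before it, LOC551526, by 567 bp and the entry after it, LOC551578, by 227 bp. Whether the authors counted reads by strand is not given in the sources used here, so reads in these overlaps may have been assigned to either gene. *mael* overlapped no other entry of the table, although in Amel_HAv3.1 a long non-coding RNA, LOC107964843, lies over it.

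Absolute depth is unknown since the values are not read counts. Judged by the steps of low RPKM values, the shallowest library had 94.3% of the depth of the deepest, and the step of queen-right worker replicate 1 was ambiguous. Only depths close to that of queen replicate 1 were searched, so a larger difference in depth could not have shown. The authors' scaling factors lay between 0.994 and 1.01 in queens and queen-less workers and were 0.898 and 0.856 in the queen-right worker libraries. Pools of a group correlated across genes on the log2 scale with r between 0.976 and 0.988. Differences between groups were taken on log2(RPKM + 1) after these factors and, for genes other than *mael* and *spn-E*, tested with limma over 8778 entries that reached 1 RPKM in no fewer than 2 libraries. On this scale the change of a weakly expressed gene comes out too small. For 1 gene on its own, exact permutation of 2 against 2 libraries has a smallest two-sided p of 0.333. The 3 comparisons share libraries and are not independent of each other.

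*mael* was among the most abundant transcripts of active ovaries. Its level was 2309 and 2274 RPKM in queen ovaries, 1467 and 1950 RPKM in queen-less worker ovaries and 97.5 and 56.5 RPKM in queen-right worker ovaries. Both queen libraries were above both queen-less worker libraries, and all 4 were far above the queen-right worker libraries, so no groups overlapped. Ordered by RPKM, *mael* was number 5 of the 11169 entries in each queen library and numbers 10 and 6 in the queen-less worker libraries, against numbers 612 and 1366 in the queen-right worker libraries. Even in the inactive ovaries at least 87.8% of all entries had a lower RPKM than *mael*.

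*spn-E* had a moderate level in every ovary. It was 28.2 and 35.1 RPKM in queen ovaries, 24.9 and 26.0 RPKM in queen-less worker ovaries and 29.2 and 41.4 RPKM in queen-right worker ovaries. The queen-less worker libraries were the lowest, below both other groups without overlap, while queen and queen-right worker libraries overlapped. After the authors' factors the queen-less worker values were 25.7 and 27.2 and the queen-right worker values 27.1 and 36.3, so that those groups overlapped as well. Between 70.1% and 81.7% of all entries had a lower RPKM than *spn-E* in the 6 libraries.

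**Figure D1:**
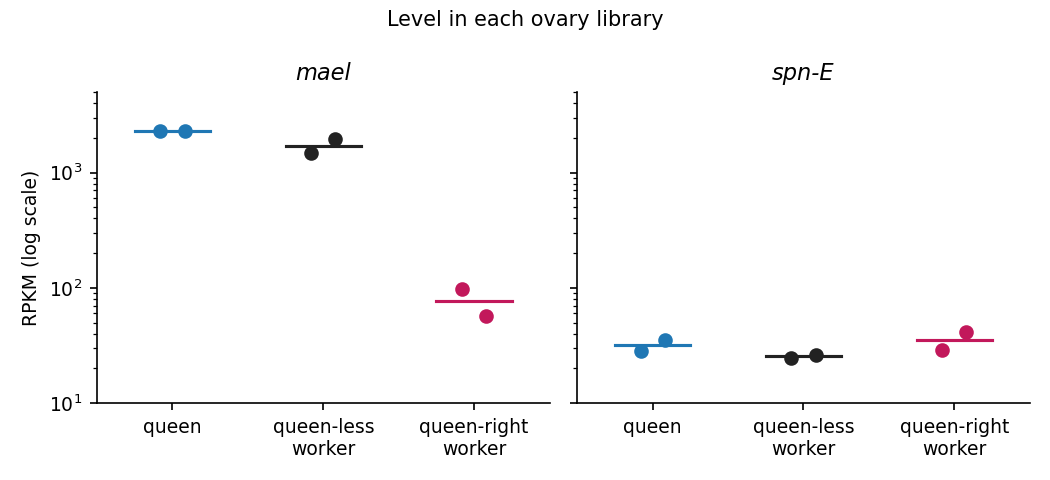
RPKM (log axis) of *mael* (left) and *spn-E* (right) in the ovary libraries of queens, queen-less workers and queen-right workers, with 1 point per library and a line at the mean of 2 libraries. *mael* lies between 1467 and 2309 RPKM in the 4 libraries of active ovaries and at 97.5 and 56.5 RPKM in queen-right workers, while all 6 *spn-E* values lie between 24.9 and 41.4 RPKM.

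The group means of *mael* were 2291 ± 24.98 RPKM in queens, 1709 ± 341 RPKM in queen-less workers and 77.04 ± 28.98 RPKM in queen-right workers (SD, n = 2 each). Queen-less workers exceeded queen-right workers by 4.68 on the log2 scale (SE 0.27), and queens exceeded queen-right workers by 5.13 (SE 0.27). Only 26 of the 8778 tested entries (0.296%) had a larger increase in queen-less over queen-right workers, and 23 (0.262%) in queens over queen-right workers. The median difference of all tested entries was −0.13 and −0.19 in these comparisons. Between queens and queen-less workers *mael* differed by 0.45 (SE 0.27), a 1.34-fold difference in RPKM, and 4.59% of the entries had a larger increase. This difference was 0.23 without queen-less worker replicate 1 and 0.66 without queen-less worker replicate 2.

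The order of *mael* levels was queen, queen-less worker, queen-right worker. The neighbours in this order that were closest, queens and queen-less workers, were separated by about as much as the 2 queen-less worker pools were from each other, at 0.45 against 0.43 on the log2 scale. The queen-right worker pools had the widest spread, with a 1.73-fold difference between them, against 1.33-fold in queen-less workers and 1.02-fold in queens. Without queen-right worker replicate 1 the difference was 5.11 for queen-less workers and 5.55 for queens, and without queen-right worker replicate 2 it was 4.26 and 4.70.

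For *spn-E* the group means were 31.7 ± 4.84 RPKM in queens, 25.4 ± 0.778 RPKM in queen-less workers and 35.3 ± 8.61 RPKM in queen-right workers (SD, n = 2 each). Queen-less workers minus queen-right workers gave −0.24 on the log2 scale (SE 0.17), close to the median of −0.13 over all tested entries, and 54.1% of the entries had a larger increase. With a library left out it ranged from −0.45 (without queen-right worker replicate 1) to −0.035 (without queen-right worker replicate 2), and without the authors' factors it was −0.44. Queens minus queen-right workers gave 0.06 (SE 0.17), and this value turned negative without queen replicate 2 (−0.09), without queen-right worker replicate 1 (−0.15), without the authors' factors (−0.14) and with the trend over gene length removed (−0.0013). Queens minus queen-less workers gave 0.31 (SE 0.17), with a range of 0.15 without queen replicate 2 to 0.46 without queen replicate 1. Over all 6 libraries none of the 3 differences was larger than the gap of 0.42 between the 2 queen-right worker pools.

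Set side by side, the genes had very different ratios in active and inactive ovaries. RPKM is scaled to gene length, so levels of the genes were set side by side within a library. How reads in overlaps with other entries were counted is not given in the sources used here, so the ratios are approximate. *mael* had 81.8 and 64.8 times the RPKM of *spn-E* in queens and 59.0 and 75.1 times in queen-less workers, but 3.34 and 1.37 times in queen-right workers. The ratio thus moved with *mael*, as *spn-E* stayed within 24.9 to 41.4 RPKM.

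The other genes of the piRNA pathway were taken from a list of 29 gene names, of which 10 stood in the table under their symbols, and all 10 were tested. Between queen-less and queen-right workers 6 of the 10 were higher in queen-less workers, 0 were lower and 4 did not pass (limma, Benjamini-Hochberg adjusted p under 0.05). Of all tested entries 67.6% passed in this comparison, 30.6% higher and 37% lower. The share of list members that passed in either direction, 60%, was thus near the background, while all that passed were higher. Without the authors' factors *vls* passed as well, as lower (−0.35). The median difference of the 10 genes was 1.51, against −0.13 over all tested entries. *spn-E* had a difference (−0.24) in the range of the 4 list members that did not pass, and *mael* (4.68) had a larger one than any of the 10.

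Among the 6 genes that were higher in queen-less workers were *vas*, *aub* and *Ago3*. *vas*, the DEAD-box helicase Vasa of the nuage, had 190.2 and 137.5 RPKM in queens, 193.2 and 201.0 RPKM in queen-less workers and 18.6 and 16.7 RPKM in queen-right workers. All 4 libraries of active ovaries were above the queen-right worker libraries, and the queen libraries were below the queen-less worker libraries. *vas* rose by 3.60 on the log2 scale in queen-less over queen-right workers (SE 0.16, limma adjusted p = 4.97e-06) and by 3.33 in queens over queen-right workers (limma adjusted p = 3.69e-06).

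*aub*, a PIWI protein gene of the ping-pong cycle, had 319.8 and 316.1 RPKM in queens, 340.9 and 278.5 RPKM in queen-less workers and 39.0 and 39.2 RPKM in queen-right workers. *Ago3*, which encodes its PIWI partner in *Drosophila*, had 65.4 and 71.0 RPKM in queens, 56.7 and 53.6 RPKM in queen-less workers and 8.07 and 10.9 RPKM in queen-right workers. In both genes the queen-right worker libraries were the lowest without overlap. *aub* rose by 3.14 in queen-less over queen-right workers (SE 0.12, limma adjusted p = 3.11e-06) and *Ago3* by 2.63 (SE 0.14, limma adjusted p = 7.02e-06). In queens over queen-right workers the differences were 3.19 and 2.93 (limma adjusted p = 1.36e-06 and 3.10e-06).

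Enzymes that modify piRNAs, PIWI proteins or chromatin formed the next group. *Pimet*, the honeybee symbol for Hen1, which in *Drosophila* methylates the ends of piRNAs, had 131.3 and 147.8 RPKM in queens, 95.1 and 114.5 RPKM in queen-less workers and 27.2 and 25.7 RPKM in queen-right workers. *egg*, which encodes the histone methyltransferase Eggless, had 112.6 and 117.8 RPKM in queens, 97.6 and 119.6 RPKM in queen-less workers and 26.6 and 23.4 RPKM in queen-right workers. *csul*, an arginine methyltransferase gene whose product modifies PIWI proteins in *Drosophila*, had 73.0 and 69.6 RPKM in queens, 72.8 and 65.2 RPKM in queen-less workers and 41.5 and 42.7 RPKM in queen-right workers. In each of these genes both kinds of active ovary were above the inactive ones in every library. In queen-less over queen-right workers *egg* rose by 2.26 (SE 0.14), *Pimet* by 2.13 (SE 0.13) and *csul* by 0.89 (SE 0.10), with limma adjusted p-values of 1.18e-05, 1.17e-05 and 0.000184.

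Of the remaining 4 genes, *shu*, *zuc* and *armi* act in piRNA biogenesis and loading, and *vls* acts with *csul*. *shu* encodes Shutdown, a co-chaperone for PIWI loading in *Drosophila*, and had 30.4 and 32.5 RPKM in queens, 25.6 and 21.2 RPKM in queen-less workers and 21.9 and 23.9 RPKM in queen-right workers. It did not pass between worker groups (0.22, limma adjusted p = 0.175), but was higher in queens than in queen-right workers by 0.64 (SE 0.13, limma adjusted p = 0.00284). *vls* encodes Valois, the partner of the *csul* product, and had 25.01 and 26.71 RPKM in queens, 26.3 and 27.6 RPKM in queen-less workers and 32.7 and 36.9 RPKM in queen-right workers. Its differences of −0.16 and −0.21 did not pass (limma adjusted p = 0.242 and 0.129), although the queen-right worker RPKM values were the highest.

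*zuc* encodes Zucchini, the endonuclease that cuts piRNA precursors, and had 19.2 and 12.9 RPKM in queens, 16.4 and 21.3 RPKM in queen-less workers and 28.0 and 24.1 RPKM in queen-right workers. Queen-right workers were again the highest in RPKM, while the difference did not pass for queen-less workers (−0.26, limma adjusted p = 0.323) or queens (−0.49, limma adjusted p = 0.0805). *armi*, the RNA helicase Armitage, was close to the limit of the filter, with 1.26 and 1.11 RPKM in queens, 0.77 and 1.02 RPKM in queen-less workers and 0.99 and 0.93 RPKM in queen-right workers. Its differences of 0.14 and 0.36 did not pass (limma adjusted p = 0.584 and 0.171).

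**Figure D2:**
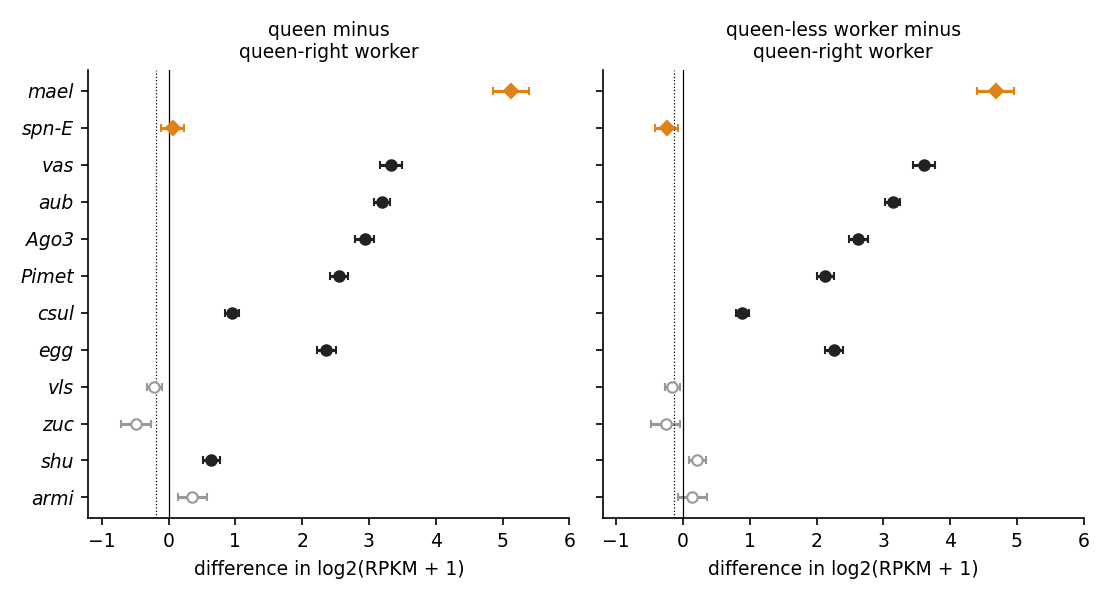
Differences in log2(RPKM + 1) with standard errors for *mael*, *spn-E* (orange diamonds, not tested) and the 10 other piRNA pathway genes, for queens minus queen-right workers (left) and queen-less workers minus queen-right workers (right). Filled circles passed an adjusted p of 0.05, open circles did not, and the dotted line is the median of all tested entries (−0.19 and −0.13); *mael* is the farthest right in both panels.

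In queens, 7 of the 10 genes were higher than in queen-right workers, 0 were lower and 3 did not pass, which is 70% of the list against a background of 71.8% of all tested entries (31.3% higher and 40.6% lower). The median difference was 1.65, against −0.19 over all tested entries. Without the authors' factors *vls* (−0.41) and *zuc* (−0.69) passed as well, both as lower in queens. Between queens and queen-less workers 0 of the 10 passed, where 1.48% of all tested entries passed, 0.0797% higher and 1.4% lower. At an unadjusted p under 0.05 in limma 2 of the 10 were higher in queens and 0 lower, and no other tool was run. The median difference of the list was 0.08, against −0.05 over all tested entries.

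Summed over the 10 genes, the piRNA list reached 968 and 933 RPKM in queens, 925 and 904 RPKM in queen-less workers and 245 and 245 RPKM in queen-right workers. *mael* alone thus exceeded the sum of these 10 genes in each library of active ovaries, and lay below it in both queen-right worker libraries. The germline markers *vas*, *aub*, *Ago3* and *nanos* were all detected in all 6 libraries, but they did not move together. *vas*, *aub* and *Ago3* were lower in queen-right than in queen-less workers, whereas *nanos* did not pass (0.03, limma adjusted p = 0.908). *orb*, a germline gene in *Drosophila*, was higher in queen-right workers (queen-less minus queen-right workers −0.63, limma adjusted p = 0.00452). In bulk tissue fewer germline cells and less RNA per germline cell cannot be told apart.

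Markers of other cell types moved with the same groups. The 9 muscle genes summed to 62.4 and 40.9 RPKM in queens, 204 and 180 RPKM in queen-less workers and 2621 and 3285 RPKM in queen-right workers. They were matched from 5 of 7 listed names, with all *TpnC* genes under the same name. Against queen-right workers 7 of these genes were lower in queen-less workers and 0 higher. *TpnCIIa* (0.07, limma adjusted p = 0.823) and *TpnCIIIb* (−0.60, limma adjusted p = 0.202) did not pass. *TpnCIIb* was listed at 0 in all libraries of active ovaries. The 5 fat body genes, among them the yolk protein gene *Vg*, summed to 32.7 and 12.1 RPKM in queens, 35.8 and 46.5 RPKM in queen-less workers and 1560 and 1218 RPKM in queen-right workers, and all 5 were lower in queen-less workers. The 6 follicle cell genes summed to 521 and 495 RPKM in queens and 462 and 324 RPKM in queen-less workers. In queen-right workers the sum was 153 and 191 RPKM. Against queen-right workers 3 were higher in queen-less workers (*tj*, *Y-g* and *Y-g2*) and 2 were lower (*slbo* and *Fas3*). Most of the sum in active ovaries came from *Y-g* and *Y-g2*. *Y-g* had 289.4 and 277.5 RPKM in queens and 4.19 and 4.56 RPKM in queen-right workers. *Fas3* went the other way, with 24.1 and 25.2 RPKM in queens and 96.8 and 121.3 RPKM in queen-right workers. The counts of marker genes stand beside 67.6% of all tested entries that passed between the worker groups, 30.6% higher and 37% lower. The part of these markers in the level of *mael* was not tested.

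**Figure D3:**
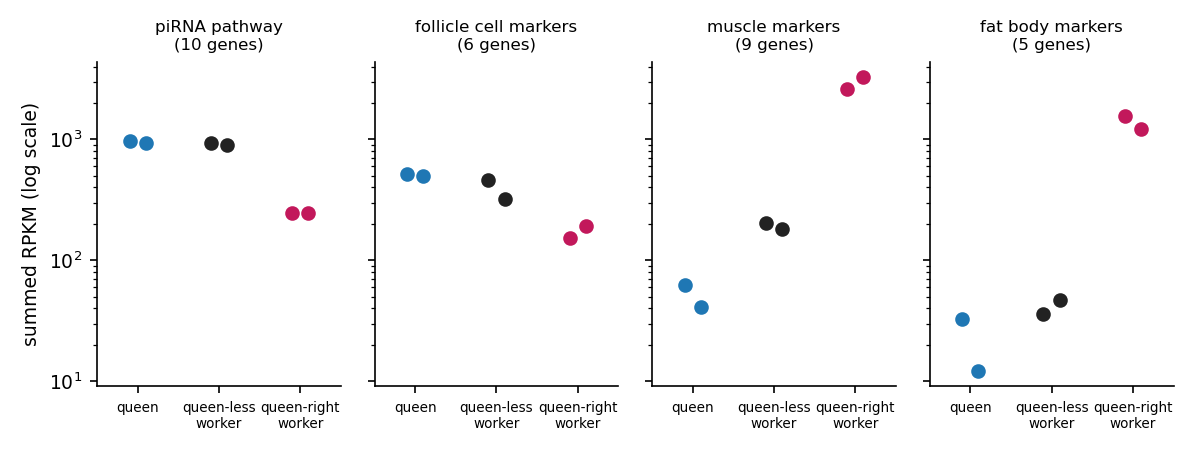
Summed RPKM (log axis) of the piRNA pathway genes without *mael* and *spn-E*, and of follicle cell, muscle and fat body markers, with 1 point per library and queens, queen-less workers and queen-right workers from left to right. The piRNA sum is 904 to 968 RPKM in active ovaries and 245 RPKM in both queen-right worker libraries, whereas the muscle sum is 40.9 to 204 RPKM in active ovaries and 2621 and 3285 RPKM in queen-right workers. The follicle cell sum in active ovaries is mostly *Y-g* and *Y-g2*, and not all of its genes go the same way.

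Genes of the related miRNA and siRNA pathways, which also use Argonaute proteins but are not limited to the germline, were matched for 5 of 11 listed names. Between queen-less and queen-right workers 3 of the 5 were higher, 0 were lower and 2 did not pass. The share that passed in either direction was 60%, against 67.6% of all tested entries. By direction, 30.6% of all tested entries were higher and 37% lower. The median difference was 1.08, against −0.13 over all tested entries. *AGO2*, the Argonaute of the siRNA pathway, had 122.3 and 128.6 RPKM in queens, 94.0 and 108.1 RPKM in queen-less workers and 37.5 and 35.8 RPKM in queen-right workers, and rose by 1.63 in queen-less workers (limma adjusted p = 1.97e-05). *drosha*, the nuclease that starts miRNA processing, had 40.9 and 38.9 RPKM in queens, 39.5 and 37.6 RPKM in queen-less workers and 12.9 and 11.6 RPKM in queen-right workers, and rose by 1.78 (limma adjusted p = 1.95e-05). *Ranbp21*, the exportin of miRNA precursors, rose by 1.08 (limma adjusted p = 0.00105). In these genes too the queen-right worker libraries were the lowest, by a smaller margin than in *mael*. *Dcr-1* (0.48, limma adjusted p = 0.0610) and *AGO1* (0.19, limma adjusted p = 0.346) did not pass between worker groups. Against queen-right workers 4 of the 5 were higher in queens, *Dcr-1* by 0.64 (limma adjusted p = 0.0201), where 71.8% of all tested entries passed (31.3% higher).

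The entries whose profile over the 6 libraries was nearest to that of *mael* were found by the distance between log2(RPKM + 1) values, each entry set to its own mean. They were LOC100578316 (0.38), LOC726487 (0.44), LOC751767 (0.47), *kinesin-8* (0.47) and LOC725841 (0.55), against a median distance of 5.93 over all tested entries. LOC726487 was even more abundant than *mael*, with 5398 and 5569 RPKM in queens, 4252 and 3857 RPKM in queen-less workers and 266.5 and 128.3 RPKM in queen-right workers. LOC100578316 had 146.8 and 144.0 RPKM in queens, 105.7 and 106.9 RPKM in queen-less workers and 6.27 and 3.31 RPKM in queen-right workers. *kinesin-8*, a motor protein gene, had 255.1 and 273.3 RPKM in queens, 150.4 and 233.8 RPKM in queen-less workers and 14.03 and 7.08 RPKM in queen-right workers. All 5 entries were lower in the second than in the first queen-right worker library, as was *mael*, which their selection by likeness over the same libraries favours. When a library was left out, between 1 and 5 of these 5 entries were again among the nearest, and without queen-right worker replicate 2 only 1 was.

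For *spn-E* the nearest entries were LOC727285 (0.20), *Vps28* (0.23), LOC413881 (0.23), LOC727199 (0.23) and *Akt1* (0.25), against a median distance of 1.23. *Vps28*, which encodes a protein of endosomal sorting, had 29.5 and 35.4 RPKM in queens, 25.8 and 29.2 RPKM in queen-less workers and 35.5 and 42.1 RPKM in queen-right workers. *Akt1*, a kinase gene of insulin signalling, had 44.3 and 44.7 RPKM in queens, 36.4 and 40.0 RPKM in queen-less workers and 44.5 and 57.0 RPKM in queen-right workers. In RPKM both genes, like *spn-E*, were lowest in queen-less worker replicate 1 and highest in queen-right worker replicate 2. These entries were selected for likeness over the same libraries, so the shared order is no separate result. At most 3 of the 5 were again among the nearest when any library was left out. The distance between *mael* and *spn-E* themselves was 5.85, close to the median distance of *mael* to all tested entries.

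**Figure D4:**
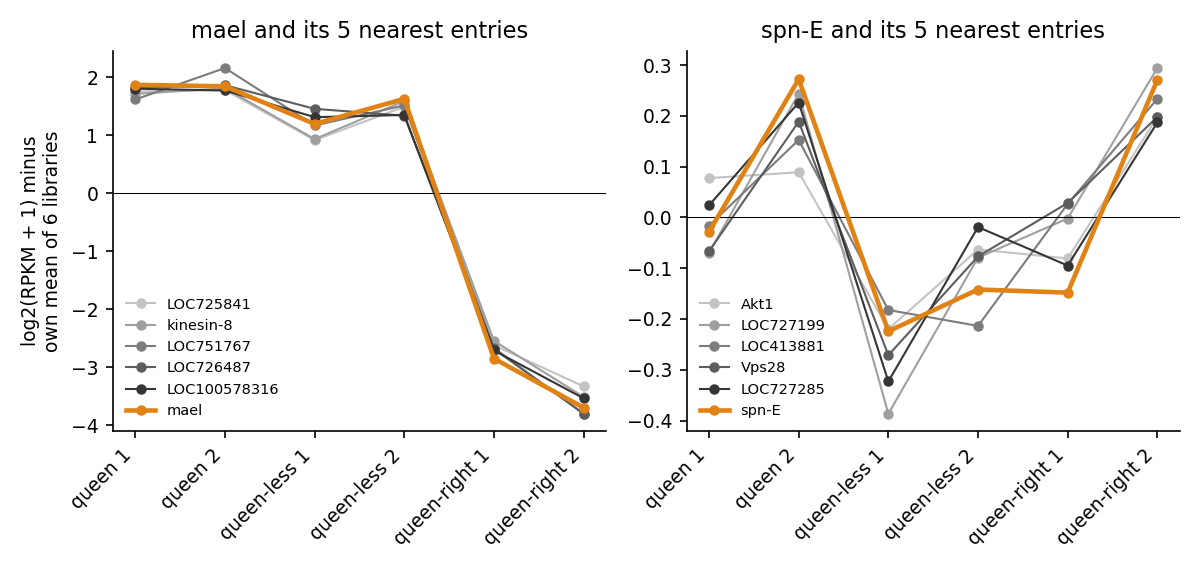
Log2(RPKM + 1) of *mael* (left) and *spn-E* (right), in orange, and of their 5 nearest entries, in grey, each minus its own mean over the 6 libraries, with 1 point per library and a separate vertical scale per panel. The *mael* panel spans from about 2 in queens to nearly −4 in queen-right workers, whereas the *spn-E* panel stays within 0.4 of its mean.

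The 4 entries nearest to *mael* on its scaffold differed in direction. LOC551553, which ends 2000 bp before *mael*, had 1.44 and 0.88 RPKM in queens, 11.0 and 6.33 RPKM in queen-less workers and 27.4 and 17.3 RPKM in queen-right workers. It was lowest where *mael* was highest, and fell by 1.09 in queen-less against queen-right workers (SE 0.32, limma adjusted p = 0.0184). This call was lost without queen-less worker replicate 2 (−0.75, limma adjusted p = 0.121) or queen-right worker replicate 1 (−0.74, limma adjusted p = 0.121). LOC551553 also fell by 2.12 in queens against queen-less workers (limma adjusted p = 0.0244). That call was not followed over the alternatives, and the queen values of this entry were near the filter limit of 1 RPKM.

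On the other side, LOC412655, which starts 3701 bp after *mael*, had 88.9 and 96.3 RPKM in queens, 80.4 and 84.9 RPKM in queen-less workers and 29.4 and 27.9 RPKM in queen-right workers. It rose by 1.69 in queen-less workers (SE 0.11, limma adjusted p = 1.31e-05), in the direction of *mael* by a smaller amount. Of the next entries out, LOC409245, 14858 bp after *mael*, fell by 1.61 (limma adjusted p = 0.000127), and LOC411459, 19332 bp before it, rose by 0.40 (limma adjusted p = 0.0358), a call with adjusted p between 0.0338 and 0.234 over the alternatives, among them 0.187 without queen-less worker replicate 2, 0.116 without queen-right worker replicate 1, and 0.0629 and 0.0631 without queen replicates 1 and 2.

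Around *spn-E*, both overlapping entries had their highest RPKM in queen-right workers. LOC551526 had 36.2 and 36.3 RPKM in queens, 38.1 and 31.9 RPKM in queen-less workers and 42.0 and 45.4 RPKM in queen-right workers, and its difference of −0.13 did not pass (limma adjusted p = 0.363). With the length trend removed this difference turned positive (0.085). LOC551578 had 11.2 and 10.6 RPKM in queens, 12.3 and 13.7 RPKM in queen-less workers and 23.2 and 27.6 RPKM in queen-right workers, and fell by 0.72 (SE 0.15, limma adjusted p = 0.00359). Reads of these genes counted for *spn-E*, or the reverse, could move the *spn-E* level, and their part in it was not tested. Farther out, LOC414032, 6141 bp before *spn-E*, rose by 1.64 (limma adjusted p = 0.000172) and LOC551619, 3965 bp after it, fell by 1.40 (limma adjusted p = 0.00214). *spn-E* thus lay among neighbours that changed in both directions.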

How the data were processed

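RNA was extracted from dissected ovaries and libraries were prepared with Illumina protocols. The authors deposited RPKM per library and a normalized signal that equals RPKM + 1 multiplied by 1 factor per library (within 0.065). The aligner, counter, build and strand are not given in the sources used here. Another 12 value columns, counted over all libraries together, and the authors' adjusted p-values of their own comparisons were not used.

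RPKM + 1 was multiplied by the authors' factors and log2-transformed (pseudocount 1). Entries that reached 1 RPKM in no fewer than 2 libraries were fitted with limma 3.58.1 (R 4.3.3), using a variance trend and a group mean over all 6 libraries. Benjamini-Hochberg adjustment ran over 8778 entries, with a threshold of 0.05. The script was tested on simulated data. Levels, distances and relative depth were computed with Python 3.11.15, numpy 2.4.6 and pandas 2.3.3.

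The members and gene lists were chosen with earlier results of these data known. Genes named were both members, matched members of the piRNA list, members of the miRNA and oogenesis lists, the 5 entries nearest in profile and 2 neighbours on each side. Lists were matched by symbol only, and of duplicate entries the longer was kept. Marker genes and LOC entries are named as in the table. Of the gene identifiers, 8962 were found in RefSeq's table of Amel_HAv3.1. Its coordinates were used only to find entries that overlap *mael* or *spn-E* in that assembly. Alternatives covered scaling, gene length, pseudocount, filter, libraries in the fit, the replicate block and leaving out each library.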

Additional observations from a re-analysis of the deposited data

How the results depend on the processing

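The *mael* difference kept its direction under every alternative run. With 1 library left out it ranged from 4.26 to 5.11 for queen-less over queen-right workers and from 4.70 to 5.55 for queens over queen-right workers. With no single library left out, 6 to 7 piRNA genes passed in queen-less against queen-right workers over the alternatives. In queens against queen-right workers 7 to 9 passed, and in queens against queen-less workers 0. These counts mix directions, since the genes added without the authors' factors were lower than in queen-right workers. They were *vls* in queen-less workers, and *vls* and *zuc* in queens. The entries that passed between queens and queen-less workers, 130, dropped to 40 with no filter, 42 with these groups fitted alone (4 libraries), and 35 to 85 with a library left out. Without the factors the median of all tested entries moved to −0.32 for queen-less and −0.39 for queens against queen-right workers, and with the length trend removed to 0.0066 and 0.013. Single genes changed sign in queen-less against queen-right workers without the factors, namely *AGO1* (−0.0072), *armi* (−0.052), *egl* (−0.045) and *nanos* (−0.17). They did so with the length trend removed for *vls* (0.057), *zuc* (0.16) and LOC551526 (0.085), and for *vls* in queens (0.035). With a library left out *egl* ranged from −0.026 to 0.32 and *nanos* from −0.18 to 0.24. The cause was not tested. Genes that passed only under an alternative between worker groups were *shu* (0.36, length trend removed), *nanos* (0.55, length trend removed), *vls* (−0.35, unscaled), *mei-W68* (−0.63, unscaled) and LOC551526 (−0.32, unscaled), and in queens *vls* (−0.41, unscaled) and *zuc* (−0.69, unscaled, and −0.76 without queen replicate 1).

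Deviations of same-numbered pools from their group means had correlations of −0.129, −0.0862 and 0.0614. With 2 pools per group these values do not settle whether any pools were handled together. With the replicate block 5704, 6173 and 72 entries passed in queen-less against queen-right workers, queens against queen-right workers and queens against queen-less workers, against 5930, 6304 and 130 without it. The piRNA counts were 6, 7 and 0 either way. With the queen-right worker numbers crossed, an alternative chosen after seeing the data, 6096, 6477 and 225 passed. Scaling on 2 reference genes was not run, as no entry is named *Rpn2*, and *mRpL44* alone was used, also chosen after seeing the data, as were the repeats of the 5 nearest entries.

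The values limit what can be read from them. With 2 pools per group the spread is poorly known, and the calls lean on the spread that limma shares across entries. RPKM without counts gives no counting error, so the precision of *armi*, near 1 RPKM, is unknown. Entries were tested from 1 RPKM up, and genes not under the listed symbols were not analysed here.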

Other observations

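Genes of oocyte RNA localization, translation control and meiosis, matched for 9 of 17 listed names, were divided between worker groups. Between queen-less and queen-right workers 5 were higher, 1 was lower and 3 did not pass, which is 66.7% of the list against 67.6% of all tested entries (30.6% higher and 37% lower), with a median of 0.34 against −0.13. *exu*, which in *Drosophila* acts in the localization of bicoid RNA, had 386.5 and 377.2 RPKM in queens, 451.4 and 341.0 RPKM in queen-less workers and 213.9 and 212.7 RPKM in queen-right workers, and rose by 1.07 in queen-less workers (limma adjusted p = 0.000416). *gcl* rose by 0.81 (limma adjusted p = 0.000501), *pum* by 0.70 (limma adjusted p = 0.00771) and *BicD* by 0.59 (limma adjusted p = 0.00640). *stau* rose by 0.34 (limma adjusted p = 0.0270), a call lost without the authors' factors (0.15, limma adjusted p = 0.296), with the length trend removed (0.22, limma adjusted p = 0.119), without queen-less worker replicate 1 (0.25, limma adjusted p = 0.132), in a fit of both worker groups alone (0.34, limma adjusted p = 0.0559), and without either queen library (0.34, limma adjusted p = 0.0605 each). These differences were smaller than those of *vas*, *aub* and *Ago3* in the same libraries.

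*orb*, an RNA-binding regulator of translation in the *Drosophila* germline, was lower in active ovaries. It had 547.5 and 528.6 RPKM in queens, 622.6 and 523.0 RPKM in queen-less workers and 963.0 and 1058 RPKM in queen-right workers, and fell by 0.63 in queen-less workers (SE 0.14, limma adjusted p = 0.00452). Both queen-right worker libraries were above all others, so that *orb* was abundant in the ovaries in which *mael* was lowest. *nanos* (0.03, limma adjusted p = 0.908), *egl* (0.15, limma adjusted p = 0.428) and *mei-W68* (−0.44, limma adjusted p = 0.121) did not pass.

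A second, short entry under the symbol *aub*, on scaffold NW_003379936 from 5 to 368, had 0.51 and 2.58 RPKM in queens, 0.99 and 1.04 RPKM in queen-less workers and 3.04 and 4.98 RPKM in queen-right workers. Unlike the long *aub* entry, it had its highest values in both queen-right worker libraries. Whether reads were shared between the entries was not tested.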
